A study of Mus musculus with 122 samples.

Results

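The 39 genes reported here are regulators and markers of pluripotency and of the first lineages of the mouse embryo, listed by name out of the 52459 genes of the expression table. By role, 3 are core factors, 12 belong to the naive network around them, 9 are Dppa genes and other stem cell associated genes, 3 belong to FGF and ERK signalling, 4 mark formative and primed cells and 8 mark lineages. All cells were E14Tg2a embryonic stem (ES) cells (129/Ola, XY) in which both alleles of Ctcf carry an auxin-inducible degron and eGFP, with Tir1 expressed from Rosa26, so that the auxin IAA degrades the CTCF protein. At Tigre each line carries a doxycycline (Dox)-inducible transgene with FLAG and mRuby2 tags. Lines were made from picked clones, and each may be 1 clone. The transgenes encode CTCF, its paralog CTCFL, or a chimera of both: LCL joins the termini of CTCFL to the zinc fingers of CTCF, and CLC joins the termini of CTCF to the zinc fingers of CTCFL. Cells grew without feeders in serum with LIF, CHIR99021 and PD0325901, and were untreated (U) or given 500 µM IAA (I), 1 µg/ml Dox (D) or both (ID), for 24 h by the labels and 2 days by the protocol. The CTCFL line has 3 RNA-seq libraries per condition but 2 of ID, the CTCF line has 3 per condition but 2 of U, and the LCL and CLC lines have 2 per condition. FLAG ChIP-seq of the same 4 lines covers D and ID with 2 replicates each.

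Pou5f1, Sox2 and Nanog hold ES cells in the pluripotent state together with a wider set of naive factors such as Esrrb, Klf4, Tfcp2l1 and Prdm14. FGF4 made by the cells drives ERK, which Spry4 and Etv4 report and which PD0325901 blocks at MEK. Exit from the naive state brings up Otx2, Fgf5 and Pou3f1 before neural genes such as Sox1. CTCF binds insulator and promoter sites genome-wide, and CTCFL, normally a germline protein, has closely similar zinc fingers and different termini.

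Recovered reads ran from 6847072 (CTCFL D 3) to 49716771 (LCL ID 1), with a median of 26013021 over 36 libraries. By line they ran from 6847072 to 43154741 for CTCFL, 16270957 to 28917040 for CTCF, 20497827 to 49716771 for LCL and 26349345 to 39671659 for CLC, and no read number could be recovered for CTCFL I 2 and ID 2. Values below are normalized counts per library in replicate order. Changes are log2 fold changes fitted per line with limma, and a gene rose or fell where the p adjusted over all genes tested was under 0.01. The p-values measure the spread between libraries, since nothing states that replicates were separate cultures. In bulk RNA, fewer cells making a transcript and less of it per cell cannot be told apart. U libraries serve as control for both I and D, and I libraries serve both the IAA comparison and the Dox comparison in IAA, so these comparisons share libraries and their values are set side by side only.

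The transgenes were followed by Ctcfl and Ctcf RNA. Ctcfl in the CTCFL line read 193, 225 and 206 untreated, 221, 203 and 177 with IAA, 7764, 9398 and 7569.5 with Dox and 5572 and 5455 with both. The CTCF line held Ctcfl at 141 and 172 untreated, 51.3, 52.3 and 53.6 with IAA, 85.3, 107 and 128 with Dox and 79.6, 66.9 and 89.3 with both. In CTCFL cells every D and ID library was above every U and I library, while in CTCF cells no Dox library was above the untreated ones. LCL cells gave Ctcfl values of 36.5 and 27.2 untreated, 33.8 and 23.5 with IAA, 384 and 416 with Dox and 1119.6 and 1225 with both. CLC cells gave 41.4 and 42.7 untreated, 81.4 and 82.4 with IAA, 1791 and 1829 with Dox and 3441 and 2544 with both. In both chimera lines every D and ID library was above every U and I library, and D lay below ID. For Ctcf itself the CTCFL line read 4644, 5270.0 and 5278 untreated, 5020.4, 4848 and 4695 with IAA, 4251, 4573 and 4959 with Dox and 3991 and 3767 with both. Counts of Ctcf in the CTCF line were 4712 and 4691 untreated, 4622, 4371 and 4231 with IAA, 3845, 3849.9 and 3549.7 with Dox and 3909.8, 4137 and 4142 with both. All libraries of the CTCF line labelled D or ID lie below its untreated ones, unlike Ctcfl with Dox in the other lines, and whether gene-level counts include the transgene was not tested. Ctcf in LCL cells read 9309 and 7829 untreated, 7792 and 7942 with IAA, 6705 and 7102 with Dox and 7194 and 6964 with both. In CLC cells it read 8460.3 and 8319 untreated, 7314 and 5586 with IAA, 10079.6 and 10162 with Dox and 10258 and 11401 with both, with every D and ID library above every U library. IAA acts on the protein, so Ctcf RNA is no check on its loss.

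Marker genes were used to check the cell type. Summed normalized counts of 8 ES cell markers ran from 86575.1 to 280354.0 per library, with Dppa5a the most abundant in the CTCFL, CTCF and CLC lines and Nanog in LCL. All 8 are members, as are Cdx2 (trophectoderm), Gata4, Gata6, Sox17 and Foxa2 (primitive endoderm), Sox1 and Pax6 (neural) and Eomes (mesoderm) of the lists below. Of 8 fibroblast markers, Dcn, Lum and Fap had means under 1 in every line, and the sum ran from 232.5 to 2169.1. Thy1 was the most abundant fibroblast marker in CTCFL, CTCF and CLC, at means of 719.7, 878.9 and 279.3, and Col1a1 in LCL, at 218.9. Trophectoderm sums were 392.5 to 467.2 in U and 772.1 to 820.9 in I of CTCFL, 645.2 to 717.8 and 1168.4 to 1538.2 in CTCF, 115.4 to 116.3 and 379.1 to 395.5 in LCL, and 144.7 to 168.8 and 649.4 to 851.4 in CLC. Much of each sum is Krt7, the most abundant trophectoderm marker in every line. Its means over all libraries were 406.9, 805.8, 186.5 and 278.8, beside median sums of 484.0, 1042.7, 305.0 and 316.9 for the trophectoderm markers. With IAA 1 of 4, 4 of 4, 2 of 3 and 2 of 3 of these markers tested rose in CTCFL, CTCF, LCL and CLC (14.3%, 14.8%, 14.1% and 12.7% of all genes), while 6, 4, 4 and 3 of the 8 ES cell markers fell (16.0%, 16.1%, 14.3% and 14.5%). Primitive endoderm sums were lower with IAA in CTCFL (6334.3 to 7224.6 in U and 5530.4 to 5869.5 in I) and CTCF (6100.0 and 5896.1 in U, 4820.1 to 5342.9 in I) and higher in LCL (615.7 and 647.0 in U, 885.8 and 869.5 in I) and CLC (593.5 and 628.8 in U, 1098.4 and 1110.1 in I), where 2 of 7 and 1 of 7 markers tested fell and 2 of 7 and 2 of 5 rose. Fibroblast sums in U, I, D and ID were 830.2 to 1023.8, 1077.0 to 1318.4, 1187.3 to 1459.6 and 1998.3 to 2169.1 in CTCFL, where 2 of 3 markers tested rose with Dox in IAA (13.2% of genes), 1039.0 to 1079.4, 1227.4 to 1418.3, 1465.1 to 1729.2 and 1515.5 to 1784.5 in CTCF, 384.0 to 399.1, 390.7 to 444.9, 705.8 to 740.0 and 232.5 to 244.3 in LCL, and 309.0 to 331.0, 677.1 to 714.1, 349.8 to 419.5 and 398.3 to 464.2 in CLC. Of neural markers tested 3 of 4, 1 of 4, 2 of 5 and 0 of 5 fell with Dox in CTCFL, CTCF, LCL and CLC (12.6%, 3.23%, 6.20% and 0.887% of genes) and 0 rose. IAA raised 2, 1, 0 and 1 of them (14.3%, 14.8%, 14.1% and 12.7%) and lowered 2, 2, 3 and 2 (16.0%, 16.1%, 14.3% and 14.5%). Dox in IAA raised 0, 1, 2 and 1 (13.2%, 10.1%, 16.2% and 3.68%) and lowered 2, 1, 0 and 0 (16.6%, 15.5%, 16.8% and 1.81%). Nes, the most abundant neural marker in CTCFL, read 2229, 2524 and 2796 in U and 4093, 3769 and 3598 in I. The median log2 fold change of the 4 neural markers tested there was -0.30 with IAA. Of 5 mesoderm markers in CTCFL only Eomes was called: up with Dox and with Dox in IAA (12.4% and 13.2% of genes). Other moves are not listed. Whether the mix of cells changed was not tested.

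Per kb of exon, Dppa5a was the highest of the 39 members in untreated cells of each line, at 58881.3 in CTCFL, 67825.3 in CTCF, 65021.5 in LCL and 73345.0 in CLC cells. Nanog came next at 15757.4, 16592.6, 18537.0 and 20824.5, while Pou5f1 stood at 7621, 7872, 13186 and 13317. At the low end, Fgf5 read 1.21, 0.21, 0.72 and 1.49 per kb, Cdx2 4.45, 1.19, 0.27 and 0.97, and Pax6 1.09, 0.74, 2.41 and 1.87. Foxa2 read 54.08, 31.15, 4.48 and 0.25, the lowest of the 39 members in CLC. Reads of Nanog, Pou5f1, Dppa3 and Dppa5a may be lost to or taken from processed pseudogene copies, and Sox2 lies inside Sox2ot, so the levels of these genes are less certain. Whether counting used the strand is not stated. Untreated levels differed between the lines for 32 of 38 members by an F test at an adjusted p under 0.01, beside 70.1% of 16480 genes. Normalized column totals ran from 23450215 to 25645306 in CTCFL, 23692567 to 25946866 in CTCF, 28210398 to 30142880 in LCL and 27805252 to 31259129 in CLC. Clone, sequencing batch and line cannot be told apart in these levels. Column names of LCL and CLC libraries mention the inhibitors of the medium and those of the CTCFL and CTCF lines do not. Whether their media differed was not tested.

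With IAA, members fell more often than they rose in every line. In CTCFL cells 2 of 37 members tested rose and 19 fell, beside 14.3% and 16.0% of 16840 genes, and 5 also changed by more than 1 on the log2 scale (9.58% of genes). In CTCF cells 3 rose and 14 fell (14.8% and 16.1% of 16705 genes) and 12 passed the fold threshold (10.9%). LCL cells gave 3 up and 16 down of 37 (14.1% and 14.3% of 15274 genes) with 5 past the fold threshold (9.58%). CLC cells gave 2 up and 17 down of 36 (12.7% and 14.5% of 15337 genes) with 10 past it (12.8%). Median log2 fold changes of the members were -0.39, -0.29, -0.29 and -0.58 in CTCFL, CTCF, LCL and CLC, against 0.042, 0.031, 0.014 and 0.0047 for all genes tested. In all 4 lines 10 members fell (Sox2, Klf5, Esrrb, Zfp42, Prdm14, Tcl1, Jam2, Sall1, Otx2 and Sox1), and Dppa3 rose in all 4. Of 14396 genes tested in all 4 lines, 35 of them members, 6.80% fell and 4.41% rose in all 4. By F test the IAA effect differed between lines for 16 of 38 members, beside 17.1% of 16480 genes. Leaving out LCL I 1 lowered the 19 LCL calls to 12, and the share of all genes called from 28.4% to 18.9%.

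Dox without IAA gave different numbers by line. In CTCFL cells 2 members rose and 20 fell (12.4% and 12.6% of genes), and 7 passed the fold threshold (5.90%). In CTCF cells limma called 0 up and 3 down (1.47% and 3.23%) with 0 past the fold threshold (0.455%). There 19 members had an unadjusted p under 0.05 (34.1% of genes), edgeR called 0 up and 3 down (1.41% and 3.23%) and DESeq2 2 up and 8 down (3.96% and 6.13%). Those 3 CTCF calls (4.70% of genes) became 1 without CTCF U 1 (0.784%), 0 without U 2 (0.179%), 11 without I 1 (6.09% up and 7.88% down) and 5 without D 2 (3.44%). LCL cells gave 1 up and 4 down (5.15% and 6.20%) with 0 past the fold threshold (1.91%). In LCL 20 members had an unadjusted p under 0.05 (34.3% of genes), edgeR called 1 up and 4 down (5.09% and 6.39%) and DESeq2 3 up and 5 down (6.06% and 7.73%). Without LCL U 1, U 2, D 1, D 2 and ID 1 in turn, the 5 calls (11.3% of genes) became 2, 3, 2, 1 and 8 (4.47%, 11.2%, 5.03%, 3.96% and 14.2%). CLC cells gave 0 up and 2 down (0.730% and 0.887%) with 0 past the fold threshold (0.600%), and 14 members at an unadjusted p under 0.05 (29.4% of genes). For CLC edgeR called 0 up and 2 down (0.711% and 0.807%) and DESeq2 1 up and 7 down (3.35% and 3.36%), while the 2 calls (1.62% of genes) became 0 without U 1, U 2, D 1 or D 2 (0.0131% of genes or less) and 8 without I 1 or I 2 (8.21% and 8.36%). Member medians were -0.42, -0.16, 0.089 and -0.16, beside -0.0028, -0.016, 0.021 and -0.018 for all genes. The Dox effect differed between lines for 21 of 38 members by F test, beside 21.7% of genes.

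Dox on top of IAA also went different ways. CTCFL cells had 2 up and 20 down (13.2% and 16.6%) and 10 past the fold threshold (7.83%), and CTCF cells 4 up and 10 down (10.1% and 15.5%) with 4 past it (5.06%). LCL cells had 7 up and 9 down (16.2% and 16.8%) with 2 past it (8.49%), and these 16 calls (33.1% of genes) became 9 without LCL I 1 (21.8%). CLC cells had 3 up and 0 down (3.68% and 1.81%) with 0 past it (1.95%). In CLC 21 members had an unadjusted p under 0.05 (32.5% of genes), edgeR called 2 up and 0 down (3.29% and 1.97%) and DESeq2 7 up and 0 down (7.25% and 3.85%). The 3 CLC calls (5.49% of genes) became 0 without U 1, U 2, ID 1 or ID 2 (1.29%, 1.28%, 0.827% and 0.488%), 1 without D 1 or D 2 (1.73% and 1.93%), and 12 without I 1 (14.1%). Member medians were -0.41, -0.12, 0.056 and 0.24 in CTCFL, CTCF, LCL and CLC, beside -0.014, -0.021, 0.0039 and 0.0098 for all genes. The F test found a difference between lines for 28 of 38 members, beside 45.5% of genes.

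**Figure D1:**
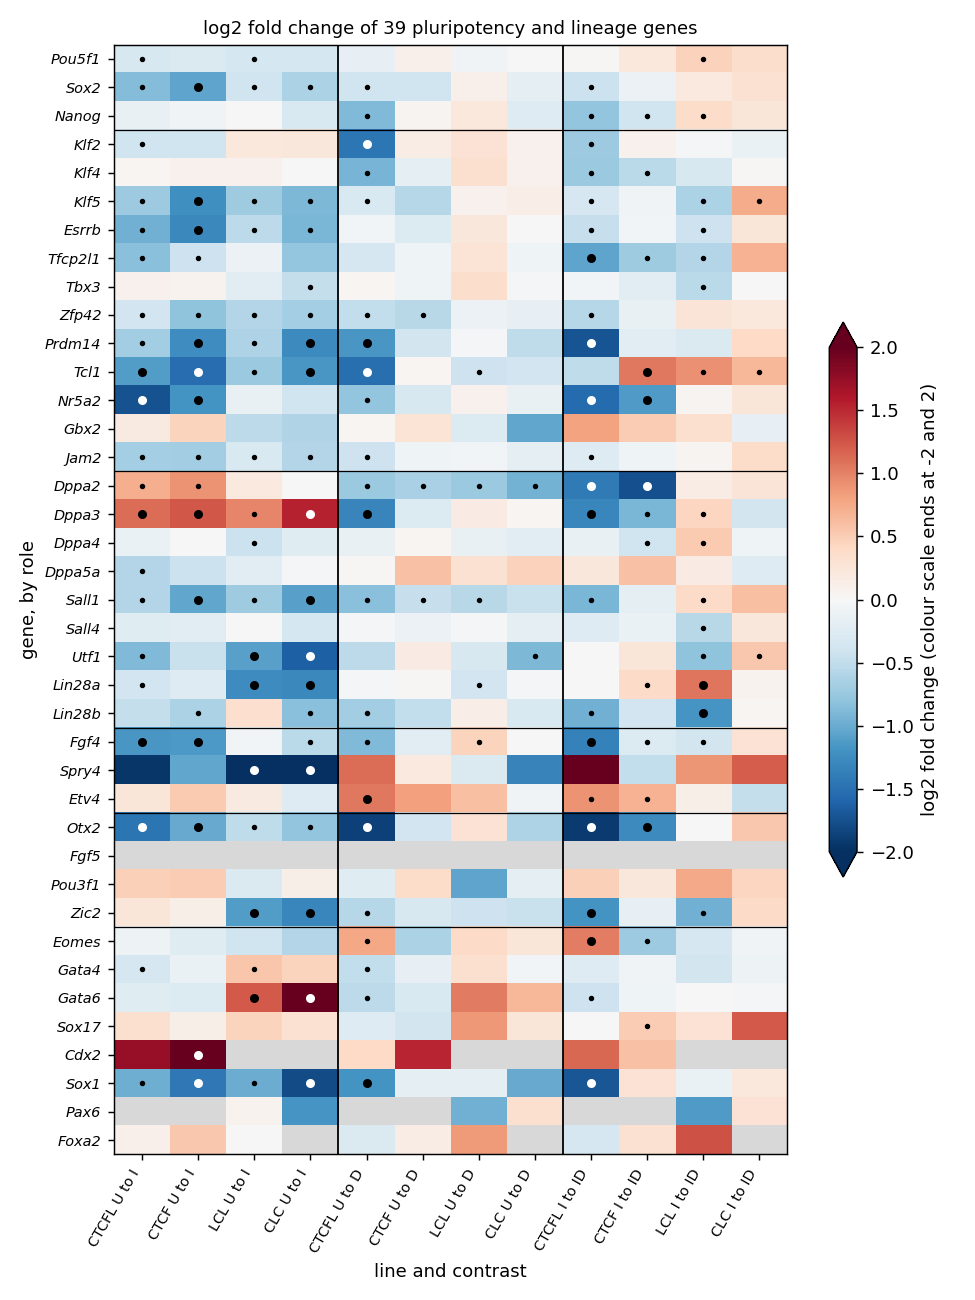
Log2 fold changes of the members (vertical) in the 12 comparisons (horizontal), coloured by size and direction, with small dots where the adjusted p passed, large dots where the fold threshold was also passed, and grey where not tested. Blocks of falls in CTCFL cells stand beside mixed values in the chimeras with Dox.

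Among core factors, Pou5f1 (ENSMUSG00000024406, chr17:35506018-35510772, plus strand) encodes OCT4, which the pluripotent state requires. Pou5f1 counts in the CTCFL line were 18080.0, 16289 and 17028 untreated, 15083, 13251 and 12975 with IAA, 15362, 16263 and 14368 with Dox and 14732 and 13097 with both. Pou5f1 in CTCF cells read 16913 and 18480.3 untreated, 13394, 15375 and 14765 with IAA, 19295, 19087 and 18576 with Dox and 17167, 16016 and 16899.7 with both. Every I library lay below every U library in both lines. LCL cells held Pou5f1 at 28845 and 30441 untreated, 22217 and 24061 with IAA, 28458 and 28275 with Dox and 33667 and 30304 with both. CLC cells held Pou5f1 at 29660.0 and 30211 untreated, 22026 and 25047 with IAA, 27706 and 31854 with Dox and 29729 and 29980.0 with both. In the chimera lines too I lay below U, and ID lay above I. With IAA, Pou5f1 fell in CTCFL, -0.32 (SE 0.072, adjusted p = 0.00121), and LCL cells, -0.36 (SE 0.093, adjusted p = 0.00405). The LCL fall was lost without LCL U 2, I 1 or I 2 (adjusted p from 0.0209 to 0.0919). CTCF cells at -0.29 (SE 0.080, adjusted p = 0.0102) and CLC cells at -0.35 (SE 0.10, adjusted p = 0.022) did not pass, though CTCF passed without CTCF I 2 or D 3 (adjusted p from 0.00929 to 0.00976) and CLC without CLC I 2 (adjusted p = 0.00675). With Dox no line passed, at -0.16, 0.10, -0.063 and -0.011 in CTCFL, CTCF, LCL and CLC. Dox in IAA raised Pou5f1 in LCL, 0.47 (SE 0.093, adjusted p = 0.000377), a call lost without LCL I 1 (adjusted p = 0.0208). The other lines read 0.016, 0.20 and 0.35, and none of the F tests of treatment passed (adjusted p = 0.956, 0.246 and 0.0133 for IAA, Dox and Dox in IAA).

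Sox2 (ENSMUSG00000074637, chr3:34650405-34652461, plus strand) is the partner of OCT4 on DNA. Sox2 counts in the CTCFL line were 10289, 9825 and 9410.2 untreated, 5521, 5256 and 5476 with IAA, 7590.0, 7811 and 6955 with Dox and 4052 and 4001 with both. Sox2 in CTCF cells read 16759 and 15269 untreated, 7152, 7894 and 7990.0 with IAA, 14323, 11861 and 10652 with Dox and 6727, 7116 and 7364 with both. I and D libraries lay below U libraries without overlap in both, and in CTCFL cells ID also lay below I. LCL cells held Sox2 at 15445 and 17114 untreated, 11973 and 12724 with IAA, 18972 and 16089 with Dox and 13809 and 14511 with both. CLC cells held Sox2 at 16834 and 16857 untreated, 10949 and 10766 with IAA, 14712 and 14913 with Dox and 12658 and 14213 with both. Again I lay below U with no overlap, while D and U overlapped in LCL. IAA lowered Sox2 in CTCFL, -0.86 (SE 0.063, adjusted p = 4.52e-10), CTCF, -1.06 (SE 0.11, adjusted p = 4.14e-06), LCL, -0.40 (SE 0.096, adjusted p = 0.00227), and CLC cells, -0.63 (SE 0.084, adjusted p = 0.000514). The LCL call was lost without LCL U 2, I 1 or I 2 (adjusted p from 0.0161 to 0.0486) and the CLC call without CLC U 1 or U 2 (adjusted p from 0.0101 to 0.0104). Dox lowered Sox2 in CTCFL cells without IAA, -0.40 (SE 0.063, adjusted p = 3.71e-05), and with it, -0.43 (SE 0.070, adjusted p = 4.83e-05). CTCF cells with Dox did not pass, -0.39 (SE 0.11, adjusted p = 0.0263), but did without CTCF I 1 or D 1 (adjusted p from 0.00875 to 0.00945). The remaining Dox values were 0.10 and -0.19 without IAA in LCL and CLC, and -0.12, 0.20 and 0.30 in IAA. Lines differed by F test for IAA (adjusted p = 0.0015), Dox (0.0075) and Dox in IAA (6.88e-05).

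Nanog (ENSMUSG00000012396, chr6:122707489-122714633, plus strand) stabilises the naive state. Nanog counts in the CTCFL line were 37372, 35184 and 33428 untreated, 29742, 32742 and 32649.5 with IAA, 19944, 18075 and 19139 with Dox and 18487 and 18144 with both. Nanog in CTCF cells read 38735 and 35666 untreated, 33480.5, 36211 and 36400.0 with IAA, 38443, 36126 and 41285 with Dox and 26801, 27243 and 26534 with both. Dox libraries of the CTCFL line lay far below those without Dox, and in CTCF cells ID alone stood apart, below the rest. LCL cells held Nanog at 40292 and 42828 untreated, 41037 and 41883 with IAA, 47933 and 48712 with Dox and 56400.1 and 50951 with both. CLC cells held Nanog at 46539 and 46838 untreated, 38774 and 36725 with IAA, 38079 and 40084 with Dox and 44341 and 44464 with both. In LCL both Dox groups stood above those without Dox, and in CLC the U libraries were the highest. Dox lowered Nanog in CTCFL cells, -0.89 (SE 0.065, adjusted p = 1.49e-09), as did Dox in IAA, -0.79 (SE 0.073, adjusted p = 2.4e-08). In IAA Dox lowered it in CTCF cells, -0.40 (SE 0.077, adjusted p = 0.00126), and raised it in LCL cells, 0.37 (SE 0.096, adjusted p = 0.0035). That LCL rise was lost without LCL I 1, I 2 or ID 1 (adjusted p from 0.0323 to 0.0526). IAA gave -0.16, -0.073, -0.0029 and -0.31 in CTCFL, CTCF, LCL and CLC, none of which passed, although CLC passed without CLC I 1 (adjusted p = 0.00755). Lines differed for Nanog with Dox (F test adjusted p = 3.17e-09) and Dox in IAA (2.59e-10), but not by this test with IAA (0.147).

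**Figure D2:**
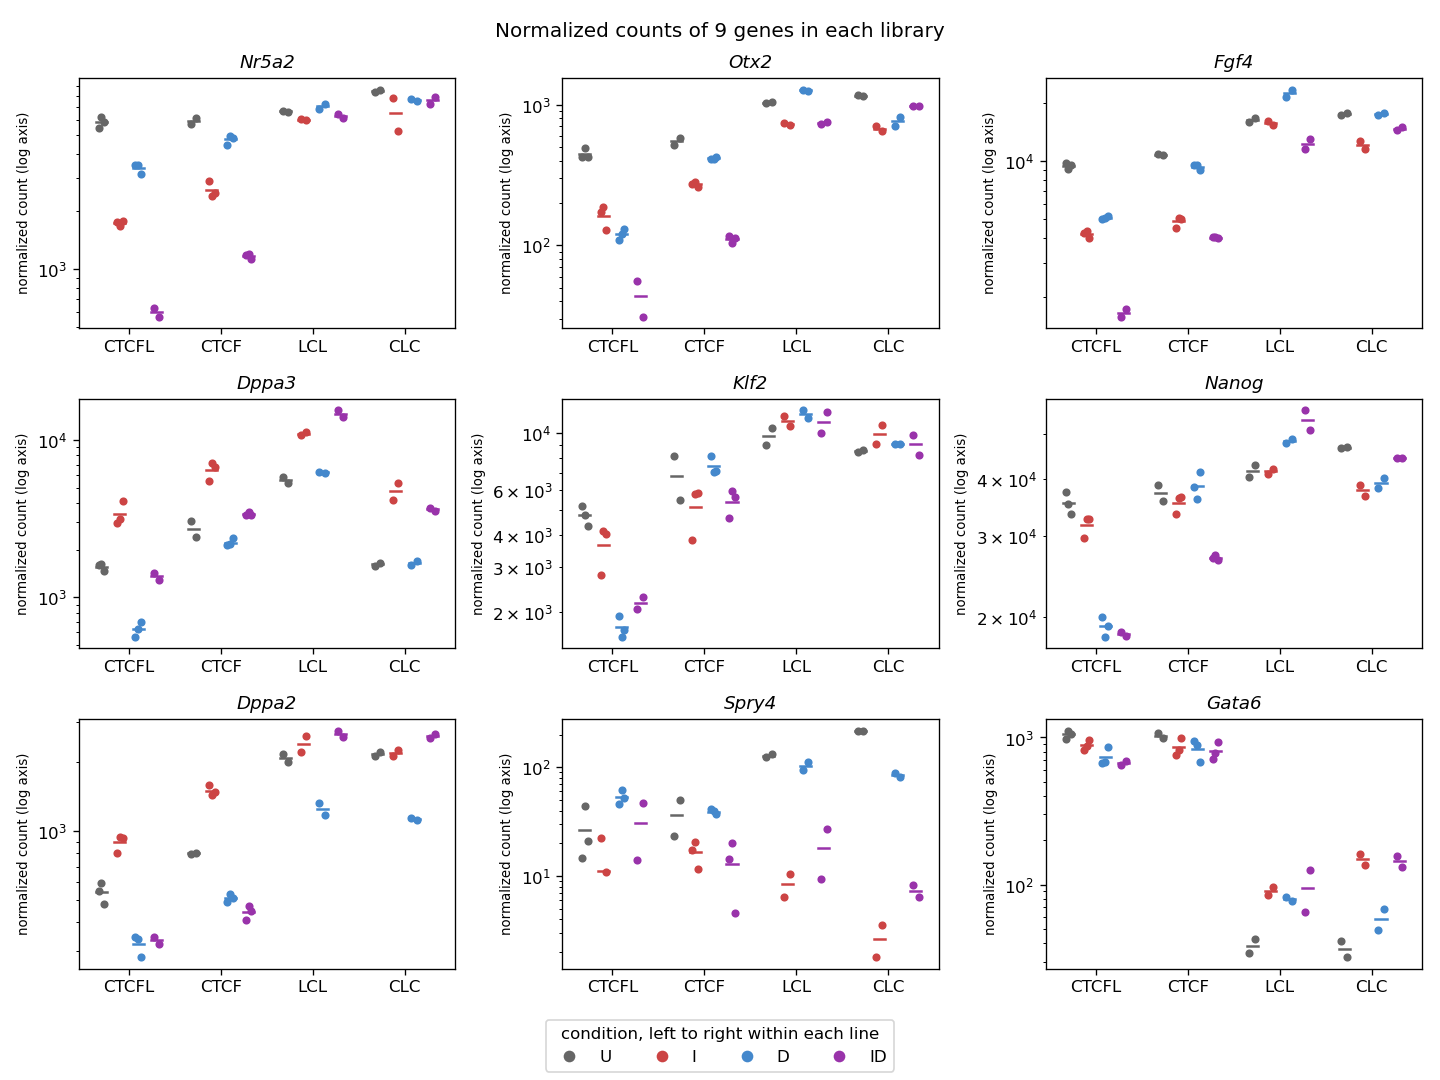
Normalized counts (vertical, log scale) of 9 members, 1 point per library and a bar at each group mean, grouped by line and condition (horizontal). The CTCFL I 2 value of 0 for Spry4 is off the log scale, and ID of the CTCFL and CTCF lines stands lowest for Nr5a2, Otx2 and Fgf4.

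In the naive network, Prdm14 (ENSMUSG00000042414, chr1:13113457-13127163, minus strand) represses FGF signalling and DNA methylation. Prdm14 counts in the CTCFL line were 1357, 1341 and 1457 untreated, 910.1, 863 and 793 with IAA, 619, 597 and 640.5 with Dox and 254 and 260.3 with both. Prdm14 in CTCF cells read 1851 and 1937 untreated, 759.9, 818 and 814 with IAA, 1449, 1619 and 1348 with Dox and 705, 661 and 676 with both. In both lines every group was apart from the group it is compared with, and ID was the lowest. LCL cells held Prdm14 at 2962 and 3178 untreated, 1968 and 2024 with IAA, 2855 and 3135 with Dox and 1488 and 1785 with both. CLC cells held Prdm14 at 3669 and 3659 untreated, 1579 and 1443 with IAA, 2638 and 2510.0 with Dox and 1882 and 2103 with both. In LCL, D overlapped U, whereas in CLC the untreated libraries were highest and ID lay above I. IAA lowered Prdm14 in CTCFL, -0.70 (SE 0.096, adjusted p = 4.52e-06), CTCF, -1.25 (SE 0.086, adjusted p = 1.24e-07), LCL, -0.62 (SE 0.10, adjusted p = 5.18e-05), and CLC cells, -1.28 (SE 0.092, adjusted p = 2.79e-05). Dox lowered it in CTCFL cells, -1.16 (SE 0.096, adjusted p = 8.24e-09), and further in IAA, -1.73 (SE 0.11, adjusted p = 7.41e-11). Dox alone in CTCF and CLC gave -0.37 (adjusted p = 0.014) and -0.51 (0.0151), which passed without CTCF I 1 or D 2 (adjusted p from 0.00472 to 0.00815) and without CLC I 1 or I 2 (adjusted p from 0.00338 to 0.00342). Dox in IAA gave -0.23 in CTCF, -0.29 in LCL and 0.40 in CLC. Of these, LCL passed without LCL ID 2 (adjusted p = 0.00274) and CLC without CLC I 1 (adjusted p = 0.00665). Prdm14 differed between lines by F test for IAA (adjusted p = 4.41e-05), Dox (8.37e-08) and Dox in IAA (5.93e-14).

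Nr5a2 (ENSMUSG00000026398, chr1:136842571-136960448, minus strand) is a nuclear receptor that can take the place of OCT4 in reprogramming. Nr5a2 counts in the CTCFL line were 5444, 6241 and 5876 untreated, 1755, 1688 and 1786 with IAA, 3476, 3503 and 3142 with Dox and 631 and 567 with both. Nr5a2 in CTCF cells read 5697 and 6155 untreated, 2873, 2407 and 2487 with IAA, 4450.1, 4966 and 4813 with Dox and 1191, 1199 and 1130.5 with both. The groups of both lines fall in the same order without overlap: U, D, I and ID. LCL cells held Nr5a2 at 6655 and 6625 untreated, 6059 and 5959 with IAA, 6874 and 7259 with Dox and 6408 and 6117 with both. CLC cells held Nr5a2 at 8373 and 8610.4 untreated, 7817 and 5267 with IAA, 7716 and 7564 with Dox and 7289.8 and 7938 with both. Within each chimera line the libraries lay close together, except CLC I 2 below the others. IAA lowered Nr5a2 in CTCFL, -1.75 (SE 0.075, adjusted p = 1.58e-13), and CTCF cells, -1.20 (SE 0.085, adjusted p = 1.57e-07). LCL read -0.14 and CLC -0.40 without passing, and CLC read -0.69 without CLC I 1, which leaves 1 I library. With Dox in IAA Nr5a2 fell again in CTCFL, -1.54 (SE 0.084, adjusted p = 1.03e-11), and in CTCF cells, -1.14 (SE 0.076, adjusted p = 3.08e-07). Dox alone lowered it in CTCFL cells, -0.79 (SE 0.075, adjusted p = 5.25e-08), while CTCF at -0.32 (adjusted p = 0.0229) passed without CTCF I 1 (adjusted p = 0.0038). In CLC cells Dox in IAA gave 0.25, which did not pass, and 0.53 without CLC I 1, which leaves 1 I library. Differences between lines passed the F test for IAA (adjusted p = 1.08e-09), Dox (7.18e-05) and Dox in IAA (4.75e-12).

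Tcl1 (ENSMUSG00000041359, chr12:105216750-105222793, minus strand) is a cofactor of AKT that favours self-renewal. Tcl1 counts in the CTCFL line were 992, 893 and 852 untreated, 419, 430.1 and 412 with IAA, 404, 329 and 243 with Dox and 343 and 253 with both. Tcl1 in CTCF cells read 1260.2 and 1107 untreated, 357, 414 and 461 with IAA, 1170.4, 1169 and 1289 with Dox and 838, 868 and 846 with both. U stood above every other group in CTCFL cells, and in CTCF cells ID lay between I and the groups without IAA. LCL cells held Tcl1 at 3409 and 3704 untreated, 2113 and 2133 with IAA, 2595 and 2764 with Dox and 3769 and 4263 with both. CLC cells held Tcl1 at 3647 and 3684 untreated, 1538 and 1728 with IAA, 2812 and 2805 with Dox and 2851 and 2324 with both. I was the lowest group in both chimera lines, with ID above it. IAA lowered Tcl1 in CTCFL, -1.11 (SE 0.16, adjusted p = 5.42e-06), CTCF, -1.53 (SE 0.11, adjusted p = 1.22e-07), LCL, -0.74 (SE 0.093, adjusted p = 2.31e-06), and CLC cells, -1.17 (SE 0.11, adjusted p = 9.79e-05). In IAA Dox raised it in CTCF, 1.06 (SE 0.094, adjusted p = 2.69e-06), LCL, 0.92 (SE 0.093, adjusted p = 1.78e-07), and CLC cells, 0.66 (SE 0.11, adjusted p = 0.00659). The CLC rise was lost without CLC U 1, U 2, D 1, D 2, ID 1 or ID 2 (adjusted p from 0.0143 to 0.0329). CTCFL cells went the other way at -0.51 (SE 0.17, adjusted p = 0.0227), which passed only without CTCFL D 3 (adjusted p = 0.00735). Dox alone lowered Tcl1 in CTCFL, -1.51 (SE 0.16, adjusted p = 1.58e-07), and LCL cells, -0.41 (SE 0.093, adjusted p = 0.00353), the latter lost without LCL U 2, D 1 or D 2 (adjusted p from 0.0226 to 0.0621). The F test found Tcl1 to differ with Dox (adjusted p = 5.95e-07) and Dox in IAA (8.44e-08), and not with IAA (0.0238).

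Klf2 (ENSMUSG00000055148, chr8:72319033-72321656, plus strand) is a Kruppel-like factor of the naive network. Klf2 counts in the CTCFL line were 5175, 4793 and 4334 untreated, 2795, 4132 and 4027 with IAA, 1931, 1598 and 1700.4 with Dox and 2063 and 2281 with both. Klf2 in CTCF cells read 8166 and 5459.7 untreated, 3835, 5791 and 5817 with IAA, 8162, 7051 and 7105 with Dox and 4678, 5911 and 5612 with both. Dox libraries of the CTCFL line lay below those without Dox, and all compared groups of the CTCF line overlapped. LCL cells held Klf2 at 8974 and 10415 untreated, 11673 and 10676 with IAA, 12281 and 11477 with Dox and 9988 and 12062 with both. CLC cells held Klf2 at 8416 and 8558 untreated, 9077 and 10789.8 with IAA, 9035 and 9058 with Dox and 9837 and 8206 with both. U was the lower group against I and D in each chimera line. Dox lowered Klf2 in CTCFL cells, -1.45 (SE 0.11, adjusted p = 3.42e-09), and again in IAA, -0.73 (SE 0.13, adjusted p = 8.17e-05). IAA lowered it there too, -0.40 (SE 0.11, adjusted p = 0.00643), a call lost without CTCFL U 1, U 2 or I 1 (adjusted p from 0.0226 to 0.0576). Without CTCFL I 1 the value was -0.22. In the CTCF, LCL and CLC lines no comparison passed, with IAA values of -0.40, 0.21 and 0.22. The Dox effect differed between lines by F test (adjusted p = 4.08e-07), but the IAA effect (0.036) and the Dox effect in IAA (0.0117) did not pass.

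The remaining 8 members of the naive network are Klf4, Klf5, Esrrb, Tfcp2l1, Tbx3, Zfp42, Gbx2 and Jam2. Of all 12 of the network, 9, 8, 6 and 7 fell with IAA in CTCFL, CTCF, LCL and CLC, 8, 1, 1 and 0 with Dox, and 9, 3, 4 and 0 with Dox in IAA. Of all genes 16.0%, 16.1%, 14.3% and 14.5% fell with IAA, 12.6%, 3.23%, 6.20% and 0.887% with Dox, and 16.6%, 15.5%, 16.8% and 1.81% with Dox in IAA. None of the 12 rose with IAA or with Dox, and with Dox in IAA 0, 1, 1 and 2 rose (13.2%, 10.1%, 16.2% and 3.68% of genes). Esrrb, a nuclear receptor, ran from 6175 (CTCFL ID 2) to 39151 (CLC D 1) over all libraries, and fell in every line with IAA (-0.96, -1.29, -0.52 and -0.91 in CTCFL, CTCF, LCL and CLC), and with Dox in IAA in CTCFL (-0.46) and LCL (-0.41, lost without LCL I 1, I 2 or ID 1, adjusted p from 0.0201 to 0.0305). Klf5 ran from 1322 to 5571 and fell in every line with IAA (-0.73, -1.23, -0.71 and -0.90), whereas Dox in IAA lowered it in LCL (-0.63) and raised it in CLC (0.75, lost without CLC U 1, U 2, ID 1 or ID 2, adjusted p from 0.0105 to 0.0196). Klf5 also fell in CTCFL with Dox (-0.31, lost without CTCFL U 1, U 2, U 3, D 1 or D 3, adjusted p from 0.0156 to 0.0437) and Dox in IAA (-0.33, lost without CTCFL I 2, ID 1 or ID 2, adjusted p from 0.0406 to 0.05). Zfp42, or Rex1, ran from 5809 to 28104 and also fell with IAA in every line (-0.39, -0.81, -0.58 and -0.69), with Dox in CTCFL (-0.49) and CTCF (-0.55, lost without CTCF U 2, adjusted p = 0.0239), and with Dox in IAA in CTCFL (-0.56). Jam2, a junction protein of naive cells, ran from 4870 (CTCFL ID 2) to 21441 (CLC U 2) and fell in every line with IAA (-0.68, -0.69, -0.31 and -0.58), with the LCL call lost without LCL U 1, I 1, I 2, D 1 or D 2 (adjusted p from 0.0139 to 0.144) and the CLC call without CLC U 1 or U 2 (adjusted p from 0.0117 to 0.0123). In CTCFL it fell too with Dox (-0.42) and Dox in IAA (-0.25, lost without CTCFL I 3, ID 1 or ID 2, adjusted p from 0.0108 to 0.0497). Tfcp2l1 (5781 to 45983) fell with Dox in IAA in CTCFL, -1.06 (SE 0.12, adjusted p = 2.65e-07), and also in CTCF (-0.71) and LCL (-0.58). IAA lowered Tfcp2l1 in CTCFL (-0.84) and CTCF (-0.41, lost without CTCF U 2, I 2, I 3, ID 1, ID 2 or ID 3, adjusted p from 0.0105 to 0.083), and CLC at -0.78 (SE 0.20, adjusted p = 0.013) passed without CLC I 1 (adjusted p = 6.94e-05). Tfcp2l1 with Dox in CTCFL, at -0.34, passed without CTCFL U 2, I 1 or I 3 (adjusted p from 0.000704 to 0.00684). With Dox in IAA in CLC it read 0.69, which did not pass, and 1.05 without CLC I 1, which leaves 1 I library. Klf4 (5496 to 24734) fell with Dox in CTCFL cells (-0.93 without and -0.74 with IAA) and with Dox in IAA in CTCF cells (-0.54), and with IAA read 0.033, 0.087, 0.093 and -0.015. Tbx3 (8324 to 26971) fell with IAA in CLC (-0.48, lost without CLC U 1, U 2, D 1 or D 2, adjusted p from 0.0123 to 0.0446) and with Dox in IAA in LCL (-0.54). Gbx2 (51.8 to 183) passed in no comparison, with values from -1.04 (CLC, Dox) to 0.81 (CTCFL, Dox in IAA). Not called, but passing without 1 library, were Esrrb (-0.27, without CTCF I 1, adjusted p = 0.00944) and Klf5 (-0.57, without CTCF I 1 or D 2, adjusted p from 0.000456 to 0.00865) with Dox in CTCF. Others passed where 1 library was left in a group. They were Klf4 (0.33) and Tbx3 (0.35) with Dox in LCL, without LCL ID 1 or ID 2. With Dox in IAA they were Klf4 in LCL (-0.32, without LCL U 1, U 2 or ID 2) and Jam2 in CLC (0.36, without CLC I 1). A further one was Zfp42 in LCL with Dox in IAA, at 0.25, and at 0.38 without LCL ID 2.

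Among Dppa and stem cell associated genes, Dppa2 (ENSMUSG00000072419, chr16:48303908-48319723, plus strand) encodes a chromatin protein of the early embryo. Dppa2 counts in the CTCFL line were 545, 596 and 478 untreated, 806, 944 and 938 with IAA, 343, 339 and 281 with Dox and 346 and 322 with both. Dppa2 in CTCF cells read 794 and 806 untreated, 1585, 1432 and 1482 with IAA, 492, 532 and 508 with Dox and 409, 470.5 and 448 with both. Both lines had their highest values in I and lower values in D and ID than in U. LCL cells held Dppa2 at 2180.2 and 2010.3 untreated, 2219 and 2600.5 with IAA, 1333 and 1179.6 with Dox and 2754 and 2589 with both. CLC cells held Dppa2 at 2127 and 2214 untreated, 2123 and 2264 with IAA, 1139 and 1123 with Dox and 2553 and 2664 with both. D was the lowest group of both chimera lines, and ID lay above U. Dox alone lowered Dppa2 in CTCFL, -0.75 (SE 0.12, adjusted p = 7.03e-05), CTCF, -0.65 (SE 0.087, adjusted p = 0.0011), LCL, -0.74 (SE 0.10, adjusted p = 4.22e-05), and CLC cells, -0.94 (SE 0.083, adjusted p = 0.0015). The CTCF call was lost without CTCF U 1 or U 2 (adjusted p from 0.0105 to 0.0225) and the CLC call without CLC U 1, U 2, D 1 or D 2 (adjusted p from 0.0308 to 0.0515). With IAA it rose in CTCFL, 0.73 (SE 0.12, adjusted p = 6.15e-05), and CTCF cells, 0.90 (SE 0.087, adjusted p = 2.67e-06), and the chimeras read 0.20 and 0.014. Dox in IAA lowered Dppa2 in CTCFL, -1.42 (SE 0.14, adjusted p = 5.38e-08), and CTCF cells, -1.76 (SE 0.078, adjusted p = 3.75e-08), beside 0.15 in LCL and 0.25 in CLC, which did not pass. Lines differed by F test for IAA (adjusted p = 3.42e-05) and Dox in IAA (5.7e-14), and the Dox effect did not pass (0.386).

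Dppa3 (ENSMUSG00000046323, chr6:122626410-122630272, plus strand), or Stella, guards DNA methylation in the zygote. Dppa3 counts in the CTCFL line were 1597, 1621 and 1474 untreated, 2967, 3157 and 4101 with IAA, 559, 631 and 697 with Dox and 1437 and 1296 with both. Dppa3 in CTCF cells read 3050.0 and 2411 untreated, 5462, 7175 and 6801 with IAA, 2146, 2183 and 2371 with Dox and 3343, 3488 and 3366 with both. I stood above every other group in both lines, and D below. LCL cells held Dppa3 at 5832 and 5345 untreated, 10808 and 11220.5 with IAA, 6292 and 6197 with Dox and 15543 and 14015 with both. CLC cells held Dppa3 at 1589 and 1651 untreated, 4184 and 5320.1 with IAA, 1617 and 1707 with Dox and 3731 and 3558 with both. Groups with IAA stood above groups without it in both chimera lines, with ID highest in LCL and I highest in CLC. IAA raised Dppa3 in CTCFL, 1.11 (SE 0.11, adjusted p = 2.84e-08), CTCF, 1.25 (SE 0.12, adjusted p = 1.78e-06), LCL, 0.98 (SE 0.087, adjusted p = 2.84e-08), and CLC cells, 1.54 (SE 0.12, adjusted p = 3.33e-05). Dox lowered it in CTCFL cells, -1.32 (SE 0.11, adjusted p = 5.96e-09), and gave -0.28, 0.16 and 0.037 in CTCF, LCL and CLC without passing. In IAA Dox lowered Dppa3 in CTCFL, -1.31 (SE 0.12, adjusted p = 2.06e-08), and CTCF cells, -0.92 (SE 0.10, adjusted p = 1.7e-05). It rose in LCL cells, 0.42 (SE 0.087, adjusted p = 0.000549), a call lost without LCL I 1 (adjusted p = 0.0166). CLC at -0.37 (SE 0.12, adjusted p = 0.0588) passed without CLC I 1 (adjusted p = 0.00209). The lines differed with Dox (F test adjusted p = 6.06e-08) and Dox in IAA (7.03e-09), and the IAA effect did not pass (0.0746).

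Utf1 (ENSMUSG00000047751, chr7:139943789-139945112, plus strand) is a chromatin factor of undifferentiated cells. Utf1 counts in the CTCFL line were 901, 809 and 659.5 untreated, 371, 444 and 465 with IAA, 720.2, 451 and 494 with Dox and 438 and 407 with both. Utf1 in CTCF cells read 767 and 605 untreated, 363, 604 and 578 with IAA, 759, 770.2 and 770.1 with Dox and 523, 631 and 637 with both. I lay below U in both lines, narrowly so in CTCF cells. LCL cells held Utf1 at 4390.0 and 5283 untreated, 2242 and 2276 with IAA, 3905 and 3839.8 with Dox and 1221 and 1364 with both. CLC cells held Utf1 at 4391 and 4321 untreated, 1329 and 1481 with IAA, 2227 and 2437 with Dox and 2144 and 1926 with both. Every treated group lay below U in the chimera lines, and ID lay below I in LCL but above it in CLC. IAA lowered Utf1 in CTCFL, -0.88 (SE 0.15, adjusted p = 8.2e-05), LCL, -1.09 (SE 0.099, adjusted p = 3.62e-08), and CLC cells, -1.63 (SE 0.098, adjusted p = 1.4e-05), and CTCF cells read -0.44 (SE 0.18, adjusted p = 0.0663). Dox alone lowered it in CLC cells, -0.90 (SE 0.098, adjusted p = 0.00323), lost without CLC U 1, U 2, D 1 or D 2 (adjusted p from 0.0344 to 0.0693). Dox in CTCFL cells, -0.53 (SE 0.15, adjusted p = 0.0101), passed without CTCFL U 3, I 1, I 3 or D 1 (adjusted p from 0.000642 to 0.00936). In IAA Dox lowered Utf1 in LCL, -0.81 (SE 0.099, adjusted p = 1.93e-06), and raised it in CLC cells, 0.53 (SE 0.098, adjusted p = 0.00901), the latter lost without CLC U 1, U 2, D 1, D 2, ID 1 or ID 2 (adjusted p from 0.0225 to 0.0514). F tests passed for IAA (adjusted p = 0.00396), Dox (0.00772) and Dox in IAA (0.000364).

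The other 6 genes of this group are Dppa4, Dppa5a, Sall1, Sall4, Lin28a and Lin28b. Lin28a, which blocks let-7 processing, ran from 719 (CLC I 1) to 4643 (CTCF ID 3). IAA lowered Lin28a in CTCFL (-0.39), LCL, -1.25 (SE 0.10, adjusted p = 6.42e-09), and CLC, -1.29 (SE 0.086, adjusted p = 2.13e-05), and Dox in IAA raised it in CTCF (0.38) and LCL, 1.07 (SE 0.10, adjusted p = 6.58e-08). Dox alone lowered Lin28a in LCL (-0.38, lost without LCL U 1, U 2, I 1, I 2, D 1 or D 2, adjusted p from 0.0156 to 0.093). Its paralog Lin28b (67.8 to 432) fell in LCL with Dox in IAA, -1.18 (SE 0.25, adjusted p = 0.000619), a call lost without LCL I 1 (adjusted p = 0.0297). Lin28b also fell with Dox in IAA in CTCFL (-0.96, lost without CTCFL ID 1, adjusted p = 0.0186), with Dox in CTCFL (-0.69, lost without CTCFL U 1, U 2, U 3, D 1 or D 3, adjusted p from 0.0101 to 0.0362), and with IAA in CTCF (-0.64, lost without CTCF U 1, U 2 or I 2, adjusted p from 0.0169 to 0.036) and CLC (-0.83, lost without CLC U 1, U 2, I 2, D 1, D 2, ID 1 or ID 2, adjusted p from 0.0144 to 0.0691). Sall1, a zinc finger factor, ran from 771 (CTCFL ID 1) to 5147 (CTCF U 2) and fell with IAA in every line (-0.59, -1.04, -0.72 and -1.08). With Dox alone Sall1 fell in CTCFL (-0.83), CTCF (-0.46) and LCL (-0.56), where the CTCF call was lost without CTCF U 1, U 2, D 1, D 3, ID 1, ID 2 or ID 3 (adjusted p from 0.0119 to 0.0709) and the LCL call without LCL U 1, D 1 or D 2 (adjusted p from 0.0103 to 0.014). With Dox in IAA it fell in CTCFL (-0.92) and rose in LCL (0.38, lost without LCL I 1, I 2 or ID 2). Without each of these the LCL value was 0.28, 0.49 and 0.19, with 1 library left in a group. Sall4 (4592 to 16428) fell in LCL with Dox in IAA (-0.55). Dppa4 (658 to 1719) fell with IAA in LCL (-0.43, lost without LCL U 1 or I 1, adjusted p from 0.013 to 0.0337), and with Dox in IAA rose in LCL (0.52) and fell in CTCF (-0.40, lost without CTCF I 1, I 3, ID 2 or ID 3, adjusted p from 0.013 to 0.0298). Dppa5a ran from 22618 (CTCF I 1) to 66026 (CTCF D 3) and fell with IAA in CTCFL (-0.59). Values of this group that passed without 1 library were, with IAA, Lin28a in CTCF (-0.26, without CTCF D 3, adjusted p = 0.0061) and Sall4 in CTCFL (-0.25, without CTCFL U 2, adjusted p = 0.00538), CTCF (-0.23, without CTCF D 3, adjusted p = 0.00952) and CLC (-0.35, without CLC I 1, adjusted p = 0.000614). With Dox they were Sall1 (-0.44) and Dppa5a (0.46) in CLC, without CLC I 1 or I 2, and Dppa5a in CTCF (0.59, without CTCF I 1, adjusted p = 0.00271). With Dox in IAA they were Dppa5a in CTCF (0.58, without CTCF U 1, U 2 or I 2, adjusted p = 0.00401 without I 2) and Sall4 in CTCFL (-0.26, without CTCFL I 3, adjusted p = 0.00488). In CLC with Dox in IAA they were Sall1 (0.60, and 0.82 without CLC I 1) and Sall4 (0.23, and 0.39 without CLC I 1). Fits without a CLC or a CTCF U library leave 1 library in a group.

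In FGF and ERK signalling, Fgf4 (ENSMUSG00000050917, chr7:144847367-144865243, plus strand) encodes the ligand ES cells secrete. Fgf4 counts in the CTCFL line were 9727, 9112 and 9529.8 untreated, 4273, 4356 and 4009 with IAA, 5021, 5116 and 5184 with Dox and 1580.1 and 1737 with both. Fgf4 in CTCF cells read 10810.0 and 10758 untreated, 4540.0, 5069 and 5036 with IAA, 9509, 9558 and 9031 with Dox and 4049.7, 4038 and 3994 with both. All compared groups stood apart in both lines, with ID the lowest. LCL cells held Fgf4 at 15872 and 16687 untreated, 16139.5 and 15338 with IAA, 21322 and 23281 with Dox and 11471 and 12942 with both. CLC cells held Fgf4 at 17257 and 17729.8 untreated, 12679.6 and 11484 with IAA, 17229.5 and 17585 with Dox and 14510.4 and 14879 with both. D was the highest group in LCL and ID the lowest, while in CLC cells I was the lowest and U overlapped D. IAA lowered Fgf4 in CTCFL, -1.17 (SE 0.064, adjusted p = 5.1e-12), CTCF, -1.15 (SE 0.069, adjusted p = 4.01e-08), and CLC cells, -0.54 (SE 0.082, adjusted p = 0.0011), the last lost without CLC U 1 or U 2 (adjusted p from 0.016 to 0.0217). Dox alone lowered it in CTCFL cells, -0.89 (SE 0.064, adjusted p = 1.16e-09), and raised it in LCL cells, 0.45 (SE 0.091, adjusted p = 0.00131), the latter lost without LCL U 1 or D 2 (adjusted p from 0.0146 to 0.0389). Dox in IAA lowered it in CTCFL, -1.35 (SE 0.071, adjusted p = 6.06e-12), CTCF, -0.28 (SE 0.061, adjusted p = 0.00306), and LCL cells, -0.37 (SE 0.091, adjusted p = 0.00251). Of these, the CTCF call was lost without CTCF I 2, I 3, ID 1, ID 2 or ID 3 (adjusted p from 0.0127 to 0.0161) and the LCL call without LCL I 1, I 2 or ID 1 (adjusted p from 0.0189 to 0.0494). CLC in IAA at 0.28 passed without CLC I 1 (adjusted p = 0.00834). F tests passed for IAA (adjusted p = 5.4e-10), Dox (3.04e-11) and Dox in IAA (2.01e-13).

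Spry4 (ENSMUSG00000024427, chr18:38586247-38601415, minus strand) is an ERK target that feeds back on the pathway. Spry4 counts in the CTCFL line were 14.8, 44.5 and 20.9 untreated, 22.4, 0 and 10.9 with IAA, 46.4, 61.5 and 52.4 with Dox and 14.2 and 47.2 with both. Spry4 in CTCF cells read 23.4 and 49.7 untreated, 17.4, 20.4 and 11.7 with IAA, 41.05, 39.3 and 36.9 with Dox and 14.5, 19.9 and 4.54 with both. These are low values, with D above U in CTCFL cells and I below U in CTCF cells. LCL cells held Spry4 at 123 and 132 untreated, 6.41 and 10.5 with IAA, 94.7 and 113 with Dox and 9.42 and 26.8 with both. CLC cells held Spry4 at 218 and 214 untreated, 1.79 and 3.54 with IAA, 88.2 and 81.5 with Dox and 8.28 and 6.38 with both. In both chimera lines the groups with IAA lay far below those without it. IAA lowered Spry4 in LCL, -3.80 (SE 0.44, adjusted p = 9.47e-07), and CLC cells, -5.93 (SE 0.36, adjusted p = 1.43e-05). Over the alternatives run, the CLC value ran from -6.35 to -4.86 and the LCL value from -4.11 to -3.31, smallest with a pseudocount of 5. CTCFL at -1.94 (SE 0.82, adjusted p = 0.0619) passed without CTCFL I 1 (adjusted p = 0.00718), and CTCF read -1.04. Dox alone passed in no line, with 1.11, 0.19, -0.30 and -1.34 in CTCFL, CTCF, LCL and CLC. Dox in IAA gave 2.05, -0.50, 0.88 and 1.22, and none passed. The LCL value was 1.59 without LCL ID 1, which leaves 1 ID library. The IAA effect differed between lines (F test adjusted p = 0.00446), and the Dox effects did not pass (0.257 and 0.144 without and with IAA). Etv4, another ERK target, ran from 63.0 (CTCF U 2) to 607 (CTCFL D 3) and rose with Dox in CTCFL cells, 1.05 (SE 0.14, adjusted p = 4.54e-06), and with Dox in IAA in CTCFL (0.90) and CTCF cells (0.70, lost without CTCF I 1, I 3, D 1, ID 1, ID 2 or ID 3, adjusted p from 0.0109 to 0.0324), while Dox alone in CTCF (0.83) passed without CTCF I 1 (adjusted p = 0.007).

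For formative and primed cells, Otx2 (ENSMUSG00000021848, chr14:48657677-48673819, minus strand) directs enhancers as cells leave the naive state. Otx2 counts in the CTCFL line were 421, 491 and 420.4 untreated, 173, 187 and 129 with IAA, 109.5, 121 and 131 with Dox and 55.7 and 31.2 with both. Otx2 in CTCF cells read 512 and 581 untreated, 271, 282 and 259.9 with IAA, 408, 413 and 427 with Dox and 117, 104 and 114 with both. U was the highest and ID the lowest group in both. LCL cells held Otx2 at 1027 and 1037 untreated, 741 and 713 with IAA, 1273 and 1252 with Dox and 721 and 746 with both. CLC cells held Otx2 at 1172 and 1145 untreated, 699 and 644 with IAA, 699 and 822 with Dox and 980.2 and 969.8 with both. I lay below U in both chimera lines, while D lay above U in LCL and below it in CLC. IAA lowered Otx2 in CTCFL, -1.46 (SE 0.22, adjusted p = 1.86e-05), CTCF, -1.01 (SE 0.11, adjusted p = 7.6e-06), LCL, -0.50 (SE 0.11, adjusted p = 0.000662), and CLC cells, -0.79 (SE 0.11, adjusted p = 0.000644). The LCL call was lost without LCL I 2 (adjusted p = 0.0135) and the CLC call without CLC U 1 (adjusted p = 0.011). Dox lowered it in CTCFL cells, -1.87 (SE 0.22, adjusted p = 1.28e-06), as did Dox in IAA in CTCFL, -1.92 (SE 0.25, adjusted p = 2.76e-06), and CTCF cells, -1.27 (SE 0.098, adjusted p = 8.43e-07). CLC read -0.61 with Dox, which passed without CLC I 1 or I 2 (adjusted p from 0.00423 to 0.00428), and 0.54 with Dox in IAA, which passed without CLC I 1 (adjusted p = 0.00622). Otx2 differed between lines for IAA (F test adjusted p = 0.00592), Dox (3.29e-08) and Dox in IAA (2.27e-10).

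Zic2 (ENSMUSG00000061524, chr14:122475435-122479852, plus strand) acts at enhancers of primed and neural cells. Zic2 counts in the CTCFL line were 463, 354 and 448 untreated, 518, 490.0 and 476 with IAA, 254, 291 and 307 with Dox and 190.0 and 243 with both. Zic2 in CTCF cells read 742 and 725 untreated, 856, 765 and 768 with IAA, 577, 577 and 610.4 with Dox and 697, 666 and 764 with both. I lay slightly above U in both, and D below. LCL cells held Zic2 at 1561 and 2031 untreated, 849 and 795 with IAA, 1409 and 1274 with Dox and 354 and 507 with both. CLC cells held Zic2 at 2002 and 1943 untreated, 792 and 795 with IAA, 1510.4 and 1394 with Dox and 1036 and 1031 with both. Here U was the highest group, with ID below I in LCL and above it in CLC. IAA lowered Zic2 in LCL, -1.12 (SE 0.15, adjusted p = 4.62e-06), and CLC cells, -1.31 (SE 0.087, adjusted p = 2.13e-05), beside 0.24 in CTCFL and 0.12 in CTCF. Dox in IAA lowered it in CTCFL, -1.20 (SE 0.16, adjusted p = 4.6e-06), and LCL cells, -0.95 (SE 0.15, adjusted p = 2.68e-05). Dox alone lowered it in CTCFL cells, -0.56 (SE 0.15, adjusted p = 0.00427), lost without CTCFL U 1, U 3 or D 1 (adjusted p from 0.023 to 0.0278). CLC with Dox at -0.44 passed without CLC I 1 or I 2 (adjusted p from 0.00566 to 0.00567). F tests passed for IAA (adjusted p = 4.46e-08) and Dox in IAA (7.34e-08) and not for Dox (0.659). Pou3f1 (11.8 to 133) passed in no comparison, with values from -1.06 (LCL, Dox) to 0.75 (LCL, Dox in IAA), and Fgf5 (0 to 7.91) was too low to test in any line.

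Among lineage genes, Gata6 (ENSMUSG00000005836, chr18:11052064-11085635, plus strand) specifies primitive endoderm. Gata6 counts in the CTCFL line were 982, 1115 and 1060.2 untreated, 818, 876 and 965 with IAA, 671, 680.2 and 865 with Dox and 645 and 689 with both. Gata6 in CTCF cells read 1067 and 994 untreated, 766, 819 and 998 with IAA, 944, 891 and 682 with Dox and 709, 788 and 932 with both. Untreated libraries were highest in CTCFL cells, and in CTCF cells the groups lay close. LCL cells held Gata6 at 34.2 and 42.6 untreated, 85.0 and 96.2 with IAA, 82.7 and 77.0 with Dox and 64.8 and 126 with both. CLC cells held Gata6 at 41.4 and 32.03 untreated, 161 and 136 with IAA, 49.4 and 68.1 with Dox and 156 and 131 with both. U was the lowest group of both chimera lines, far under the levels of the other lines. IAA raised Gata6 in LCL, 1.22 (SE 0.31, adjusted p = 0.00378), and CLC cells, 1.99 (SE 0.25, adjusted p = 0.00037), with the LCL call lost without LCL U 1, I 1 or I 2 (adjusted p from 0.0138 to 0.0387) and without a filter (0.0189). In CTCFL cells Dox lowered it, -0.52 (SE 0.11, adjusted p = 0.000667), and Dox in IAA too, -0.41 (SE 0.12, adjusted p = 0.00927), the latter lost without CTCFL U 1, U 2, U 3, I 2, I 3, ID 1 or ID 2 (adjusted p from 0.0106 to 0.0891). LCL with Dox, 1.04 (SE 0.31, adjusted p = 0.0218), passed without LCL ID 1 (adjusted p = 0.00838). Lines differed for IAA (F test adjusted p = 2.9e-07), Dox (0.000101) and untreated level (1.61e-21), and the Dox effect in IAA did not pass (0.539).

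Cdx2 (ENSMUSG00000029646, chr5:147300805-147307270, minus strand) specifies trophectoderm. Cdx2 counts in the CTCFL line were 16.2, 12.8 and 1.16 untreated, 41.03, 17.0 and 24.4 with IAA, 10.8, 10.6 and 7.49 with Dox and 79.7 and 42.2 with both. Cdx2 in CTCF cells read 3.19 and 2.21 untreated, 12.6, 20.4 and 17.6 with IAA, 10.5, 8.50 and 9.78 with Dox and 38.6, 28.2 and 15.1 with both. I lay above U in both lines, at few counts per library. LCL cells held Cdx2 at 0 and 1.23 untreated, 1.75 and 17.8 with IAA, 1.49 and 0.69 with Dox and 20.01 and 26.8 with both. CLC cells held Cdx2 at 0.84 and 3.56 untreated, 13.4 and 2.66 with IAA, 5.81 and 3.17 with Dox and 6.77 and 5.47 with both. Chimera values were too low to test, and in CLC all groups compared overlapped. IAA raised Cdx2 in CTCF cells, 2.26 (SE 0.45, adjusted p = 0.00118), a call lost without CTCF U 2 (adjusted p = 0.0135), or with all lines in 1 fit (adjusted p = 0.0177), and the fold change ran from 1.49 to 2.61 over the alternatives run. CTCFL read 1.74 (SE 0.70, adjusted p = 0.0504). Dox gave 0.40 and 1.53 without IAA and 1.14 and 0.59 with it in CTCFL and CTCF, and none passed. No F test of treatment passed for Cdx2 (adjusted p = 0.866, 0.766 and 0.527).

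Sox1 (ENSMUSG00000096014, chr8:12395295-12400126, plus strand) marks neural progenitors. Sox1 counts in the CTCFL line were 376, 385 and 346 untreated, 159, 185 and 219.9 with IAA, 163, 132 and 191 with Dox and 52.4 and 60.3 with both. Sox1 in CTCF cells read 562 and 536 untreated, 173, 216 and 221 with IAA, 527, 519 and 419 with Dox and 244, 272 and 229 with both. U stood above I in both, and D overlapped neither U nor ID. LCL cells held Sox1 at 179 and 193 untreated, 85.0 and 103 with IAA, 191 and 139 with Dox and 71.8 and 102 with both. CLC cells held Sox1 at 308 and 285 untreated, 83.2 and 85.9 with IAA, 133 and 163 with Dox and 90.3 and 107 with both. Untreated values were again above I in both chimera lines. IAA lowered Sox1 in CTCFL, -0.98 (SE 0.19, adjusted p = 0.00032), CTCF, -1.43 (SE 0.14, adjusted p = 2.77e-06), LCL, -0.99 (SE 0.24, adjusted p = 0.00254), and CLC cells, -1.80 (SE 0.18, adjusted p = 0.000124). The LCL call was lost without LCL U 1, U 2 or I 1 (adjusted p from 0.0146 to 0.0298). Dox lowered it in CTCFL cells, -1.20 (SE 0.19, adjusted p = 5.34e-05), and in IAA, -1.71 (SE 0.22, adjusted p = 1.88e-06). CLC with Dox, -1.005 (SE 0.18, adjusted p = 0.0145), passed without CLC I 1 or I 2 (adjusted p from 0.00633 to 0.00637). The IAA effect did not pass the F test (0.0415), and the Dox effects did without (adjusted p = 0.00179) and with IAA (1.38e-07).

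Of the other lineage members, Eomes, Gata4, Sox17, Pax6 and Foxa2, 3 passed somewhere. Eomes, of trophoblast and mesendoderm, ran from 83.3 (LCL ID 2) to 356 (CTCFL ID 2) and rose with Dox in CTCFL cells without IAA, 0.78 (SE 0.19, adjusted p = 0.00329), and with it, 1.03 (SE 0.22, adjusted p = 0.000622). Those rises were lost without CTCFL U 1, U 3 or D 2 (adjusted p from 0.0103 to 0.0258) and without CTCFL ID 2 (adjusted p = 0.0192). Without both I 2 and ID 2, the rise with Dox in IAA had adjusted p-values of 0.042 by edgeR, 0.0518 by DESeq2 and 0.0583 by limma, with log2 fold changes of 0.74, 0.73 and 0.74. In CTCF cells Eomes fell with Dox in IAA (-0.73), and with Dox alone (-0.63) passed without CTCF I 1 (adjusted p = 0.00631). Gata4, an endoderm factor (275 to 1838), fell in CTCFL with IAA (-0.34, lost without CTCFL U 1, U 2, I 1 or I 3, adjusted p from 0.0127 to 0.0594) and with Dox (-0.49). It rose in LCL with IAA (0.56, lost without LCL U 1, I 1, I 2, D 1 or D 2). Dox in IAA in LCL read -0.37, which did not pass, and -0.58 without LCL ID 2, which leaves 1 ID library. Sox17 ran from 21.4 (CLC U 2) to 483 (CTCF ID 3) and rose in CTCF with Dox in IAA (0.50, lost without CTCF I 2, ID 1 or ID 3, adjusted p from 0.0105 to 0.0175). Pax6 (0 to 43.7) was tested in the chimera lines, with log2 fold changes from -1.17 (CLC, IAA) to 0.32 (CLC, Dox), and did not pass. Foxa2 (0 to 166) was tested in all lines but CLC, with log2 fold changes from -0.34 (CTCFL) to 1.28 (LCL), both for Dox in IAA, and did not pass.

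FLAG sites were called where peaks of both replicates overlap, and a member had a site where its middle lay within 3000 bp of an annotated start site. Of members with a mean of at least 10, 22 of 37 had a CTCFL site in D (43.3% of such genes) and 20 in ID (40.7%), out of 22304 and 25109 sites. For CTCF 14 of 37 had a site in D (38.8%) and 7 in ID (30.5%), out of 37167 and 30335 sites. LCL gave 16 of 37 in D (40.8%) and 17 in ID (52.3%), out of 27597 and 34715 sites, and CLC 2 of 36 in D (9.70%) and 12 in ID (27.1%), out of 7608 and 17892 sites. Sox2 and Foxa2 had a site in all 8 sets, and Klf4, Klf5, Tbx3, Fgf4 and Gata6 in 7. No set held a site at 13 members: Nanog, Klf2, Prdm14, Tcl1, Dppa2, Dppa3, Dppa5a, Utf1, Fgf5, Pou3f1, Zic2, Gata4 and Sox1. Among 14138 genes with a mean of at least 10 in every line, 8.24% had a site in all 8 sets, 11.9% in 7 and 35.9% in none, and of the 35 members among them 1, 5 and 12. Pou5f1, Gbx2 and Spry4 had sites in both CTCFL sets and in no other, and Esrrb and Nr5a2 in CTCFL D alone. Of the 14138 genes 7.87% had a site in 2 sets and 9.63% in 1, and of the 35 members 3 and 4. The share of all genes with sites in CTCFL sets alone was not counted. Among members that fell with Dox in CTCFL cells 9 of 20 had a CTCFL D site (40.8% of all genes that fell), against 2 of 2 that rose (65.3%) and 11 of 15 not called (40.1%). In IAA the CTCFL ID values were 9 of 20 (37.4%), 2 of 2 (63.9%) and 9 of 15 (37.1%). Over all 39 members, peaks of replicate 2 alone raised the CTCF D count from 14 to 26 and CLC D from 3 to 5, and peaks of replicate 1 alone raised CTCF ID from 7 to 13. The shares of genes with a mean of at least 10 rose with them, from 38.8% to 53.5%, 9.70% to 15.3% and 30.5% to 36.8%. Other settings lowered counts: within 1000 bp CTCF D had 8, CTCF ID 3, LCL D 9, CLC D 0 and CLC ID 8 (23.2%, 16.8%, 27.5%, 5.51% and 17.8% of such genes), and at 50% reciprocal overlap CTCF D had 8 and CLC D 0 (19.7% and 7.11%).

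**Figure D3:**
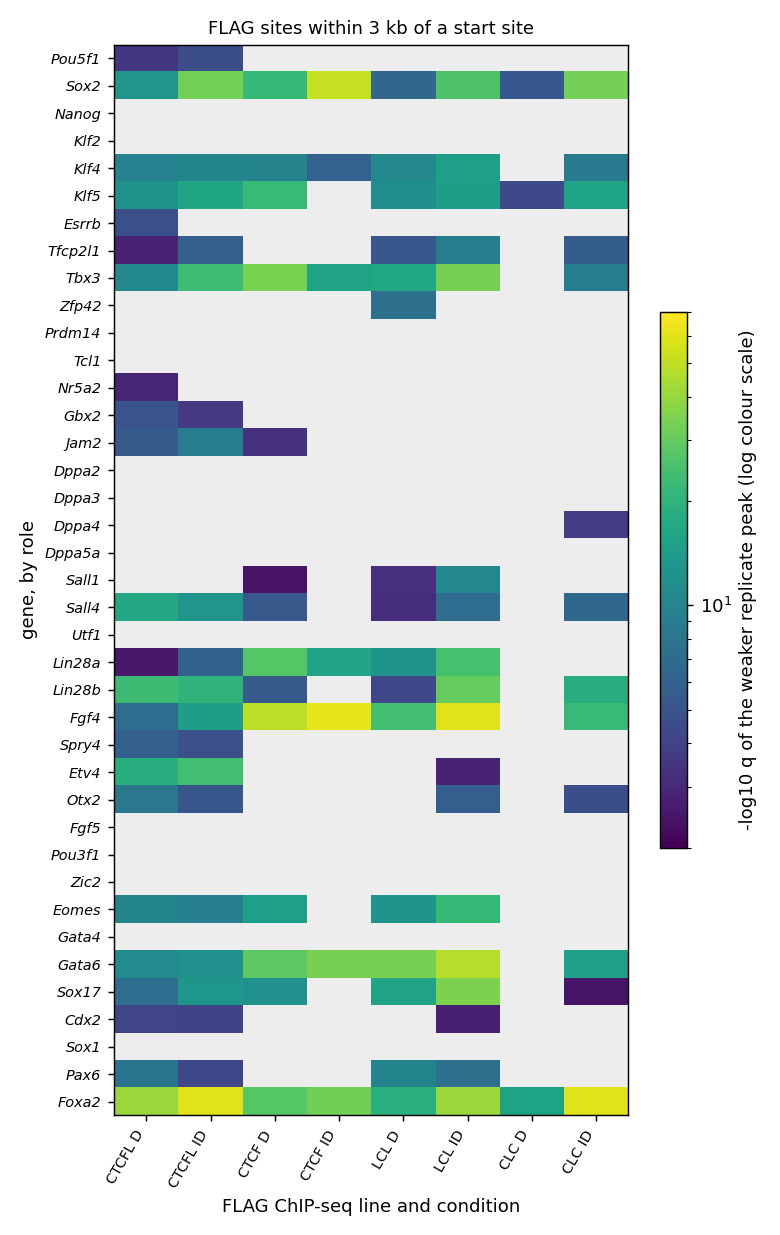
Members (vertical) against the 8 FLAG sets (horizontal), coloured by the −log10 q of the weaker replicate peak of the site and grey where there is no site. Sox2 and Foxa2 are filled across all sets, and Nanog, Prdm14 and Dppa3 are among the empty ones.

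The motif CCNNNAGNNGGC was searched on both strands in 201 bp around the summit. It occurred in 50 of 127 member sites over the 8 sets. A site found in several sets is counted in each, so these are not distinct sites. Among all sites of a set the motif occurred in 8373 of 22304 for CTCFL D and 11048 of 25109 for CTCFL ID. For CTCF D and ID it was 15353 of 37167 and 16194 of 30335, for LCL 8230 of 27597 and 10886 of 34715, and for CLC 1984 of 7608 and 7864 of 17892. A match is a description and shows neither binding at those bases nor a cause of a change. Sequences are from GRCm38.p6 with the match in capitals. The Sox2 site in the CTCF ID set had a −log10 q of 74.0 and 51.4 in replicates 1 and 2, and its match lies on the plus strand within chr3:34647853-34647932, inside Sox2ot.
Sox2 site: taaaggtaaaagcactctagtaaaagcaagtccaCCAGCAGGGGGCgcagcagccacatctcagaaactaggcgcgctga
The Fgf4 site of the CTCF ID set reached 78.3 and 61.0, with fold enrichments of 11.02 and 11.81, and its match lies on the plus strand in chr7:144846324-144846403.
Fgf4 site: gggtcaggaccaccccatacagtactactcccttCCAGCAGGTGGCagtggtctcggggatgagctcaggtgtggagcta
At Foxa2 the CTCFL ID set reached 73.1 and 59.0 and the CLC D set 15.8 and 18.6, with a match on the minus strand in chr2:148048612-148048691, written on that strand.
Foxa2 site: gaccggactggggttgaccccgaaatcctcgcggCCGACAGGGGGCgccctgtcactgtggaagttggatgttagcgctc
The Pou5f1 site, present in the CTCFL sets, had 7.93 and 3.54 in D and 9.13 and 4.68 in ID, with a plus strand match in chr17:35508413-35508492.
Pou5f1 site: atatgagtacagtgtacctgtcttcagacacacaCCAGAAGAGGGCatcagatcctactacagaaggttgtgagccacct
Lin28a had a site in both CTCF and both LCL sets at an intronic match on the minus strand of chr4:134013311-134013390, while its CTCFL D and ID sites, at chr4:134017244-134018132 and chr4:134017440-134018333, overlapped a further LCL ID site at chr4:134017462-134017883.
Lin28a site: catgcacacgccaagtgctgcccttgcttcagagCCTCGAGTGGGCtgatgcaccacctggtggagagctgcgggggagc

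Genes of the same pathways outside the list were counted in the same way. For comparison, 14.3%, 14.8%, 14.1% and 12.7% of all genes rose and 16.0%, 16.1%, 14.3% and 14.5% fell with IAA in CTCFL, CTCF, LCL and CLC, 12.4%, 1.47%, 5.15% and 0.730% rose and 12.6%, 3.23%, 6.20% and 0.887% fell with Dox, and 13.2%, 10.1%, 16.2% and 3.68% rose and 16.6%, 15.5%, 16.8% and 1.81% fell with Dox in IAA. Of 20 further naive pluripotency genes 0, 0, 2 and 1 rose with IAA and 12, 13, 9 and 6 fell in CTCFL, CTCF, LCL and CLC. With Dox 3, 0, 2 and 1 rose and 14, 3, 3 and 2 fell, and with Dox in IAA 2, 2, 4 and 5 rose and 12, 8, 8 and 0 fell. The smallest adjusted p-values there belonged to Tdgf1, -1.23 with Dox in CTCFL cells (adjusted p = 5.12e-12), Trim28 (-1.01, 1.02e-10) and Tdh (-1.33, 6.06e-10). Of 15 further formative and primed genes 3, 4, 9 and 6 fell and 1, 2, 1 and 0 rose with IAA, 2, 4, 2 and 2 fell and 1, 0, 0 and 0 rose with Dox, and 2, 4, 4 and 0 fell and 2, 2, 4 and 2 rose with Dox in IAA. Lefty2 in LCL cells with Dox (-2.69, 3.07e-10), Etv5 in CTCFL cells with Dox (-0.80, 3.14e-08) and Dusp6 in LCL cells with IAA (-2.20, 2.63e-07) had the smallest. Of 15 further ERK and FGF response genes 1, 6, 1 and 4 rose and 3, 4, 5 and 5 fell with IAA, 5, 0, 2 and 2 rose and 2, 2, 2 and 1 fell with Dox, and 4, 0, 3 and 3 rose and 4, 5, 3 and 0 fell with Dox in IAA. Myc in LCL cells with IAA (-2.33, 1.42e-07), Dusp4 in CTCFL cells with Dox (2.04, 1.57e-07) and Spred2 in CTCFL cells with Dox in IAA (-0.93, 2.95e-07) led that list. Of 12 WNT response genes 10, 11, 10 and 11 were tested, and 2, 4, 3 and 3 rose and 1, 0, 3 and 2 fell with IAA, 5, 0, 2 and 0 rose and 1, 0, 2 and 1 fell with Dox, and 1, 1, 2 and 1 rose and 2, 2, 2 and 0 fell with Dox in IAA. There Cdx1 in CTCFL cells with IAA (1.75, 1.3e-09), Notum in LCL cells with IAA (-1.31, 1.05e-05) and Ccnd1 in LCL cells with Dox in IAA (0.76, 2.14e-05) came first.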

How the data were processed

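RNA-seq was measured in 38 libraries of 4 transgene lines and FLAG ChIP-seq in 8 sets with 2 replicates each. The signal is, as deposited by the authors, gene counts after STAR alignment to GRCm38/mm10 divided by 1 size factor per library (normalized counts). For FLAG peaks, called per replicate with MACS, the deposited values are a ratio (fold enrichment over local background) and the −log10 of the q value at the summit. In 36 of 38 columns, 100% of values up to 500 reads lay within 0.1 of a whole read, which gave read numbers for edgeR and DESeq2. The number of columns not used was 0. Members and other gene lists were chosen with earlier results of these data known. Per line, limma (lmFit, contrasts.fit, eBayes with trend) was run on log2(normalized count + 1) for genes with a mean of at least 10, with the 4 conditions in 1 fit and Benjamini-Hochberg adjustment over all genes tested. A gene rose or fell at an adjusted p under 0.01, and passed the fold threshold with an absolute log2 fold change also above 1. Differences between lines are F tests over all libraries. By edgeR and DESeq2 on recovered reads, all genes called were 4087 and 4453 for IAA, 3858 and 4304 for Dox and 2854 and 3316 for Dox in IAA in CTCFL without I 2 and ID 2, which leaves 1 ID library (limma on the same libraries, chosen after seeing the data, gave 3817, 3775 and 2685), 5304 and 5654, 766 and 1662, and 4262 and 4724 in CTCF, 4429 and 4639, 1825 and 2191, and 5115 and 5319 in LCL, and 4091 and 4964, 237 and 1047, and 822 and 1732 in CLC. Given in full are the core factors and the 14 members with the largest absolute log2 fold change among those past both thresholds in any comparison, the others by range and fold change, and of each other list the 3 genes with the smallest adjusted p. FLAG sites are merged regions with a peak in both replicates. Alternatives were other pseudocounts, filters, scaling (TMM), tools, replicate blocks, fits, windows and overlaps, and leaving out each library. The test was run on simulated data first. Tools were R 4.3.3, limma 3.58.1, edgeR 4.0.16, DESeq2 1.42.0, Python 3.11.15, numpy 2.4.6, pandas 2.3.3 and matplotlib 3.10.9. FLAG ChIP-seq without matched RNA-seq, RAD21 and chromatin domains were not used here.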

Additional observations from a re-analysis of the deposited data

Results flagged for a closer look

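Members are listed here because an F test of the difference between lines (limma, adjusted over all genes tested) passed. Each line may be 1 clone and lines may have been sequenced apart, which cannot be told apart from the transgene. The effect of IAA differed between the 4 lines for 16 of 38 members tested, beside 17.1% of 16480 genes. The adjusted p-values were 3.42e-05 for Dppa2, 1.42e-05 for Esrrb, 5.4e-10 for Fgf4, 0.000354 for Gata4, 2.9e-07 for Gata6, 0.00283 for Jam2, 2.56e-09 for Lin28a, 1.08e-09 for Nr5a2, 0.00592 for Otx2, 4.41e-05 for Prdm14, 0.0015 for Sox2, 0.00446 for Spry4, 0.0027 for Tbx3, 0.00396 for Utf1, 0.00889 for Zfp42 and 4.46e-08 for Zic2.

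The effect of Dox without IAA differed between the lines for 21 of 38 members tested, beside 21.7% of 16480 genes. The adjusted p-values were 6.06e-08 for Dppa3, 0.000517 for Eomes, 0.00322 for Esrrb, 0.00575 for Etv4, 3.04e-11 for Fgf4, 0.00484 for Gata4, 0.000101 for Gata6, 0.00191 for Jam2, 4.08e-07 for Klf2, 9.63e-10 for Klf4, 0.0046 for Klf5, 3.17e-09 for Nanog, 7.18e-05 for Nr5a2, 3.29e-08 for Otx2, 8.37e-08 for Prdm14, 0.00179 for Sox1, 0.000582 for Sox17, 0.0075 for Sox2, 5.95e-07 for Tcl1, 0.00772 for Utf1 and 0.00185 for Zfp42.

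The effect of Dox in cells with IAA differed between the lines for 28 of 38 members tested, beside 45.5% of 16480 genes. The adjusted p-values were 5.7e-14 for Dppa2, 7.03e-09 for Dppa3, 0.000103 for Dppa4, 0.00795 for Dppa5a, 6.1e-06 for Eomes, 2.14e-06 for Esrrb, 0.000187 for Etv4, 2.01e-13 for Fgf4, 4.44e-06 for Jam2, 1.1e-05 for Klf4, 1.42e-06 for Klf5, 7.29e-09 for Lin28a, 0.00256 for Lin28b, 2.59e-10 for Nanog, 4.75e-12 for Nr5a2, 2.27e-10 for Otx2, 5.93e-14 for Prdm14, 1.11e-08 for Sall1, 0.00224 for Sall4, 1.38e-07 for Sox1, 0.000845 for Sox17, 6.88e-05 for Sox2, 0.0039 for Tbx3, 8.44e-08 for Tcl1, 2.43e-07 for Tfcp2l1, 0.000364 for Utf1, 3.08e-07 for Zfp42 and 7.34e-08 for Zic2.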

How the results depend on the processing

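Each count of members was recomputed under other settings, 450 in all for 24 counts, and 389 stayed within 1.5 times the reported count while 61 moved further. No direction of a gene past both thresholds reversed. With the added fold threshold the counts were 5, 7 and 10 in CTCFL (IAA, Dox and Dox in IAA), 0 for Dox and 4 for Dox in IAA in CTCF, 5, 0 and 2 in LCL, and 10, 0 and 0 in CLC. Percentages in brackets are shares of all genes called under the same setting. DESeq2 gave 10, 8 and 8 for Dox in CTCF, LCL and CLC (10.1%, 13.8% and 6.71%), and 7 for Dox in IAA in CLC (11.1%). Without a filter LCL Dox gave 3 (3.98%) and CLC Dox in IAA 1 (1.78%), and TMM scaling gave 3 for LCL Dox (10.4%). With a fit of all 4 lines Dox gave 9, 8 and 6 in CTCF, LCL and CLC (6.44%, 12.3% and 10.1%), and CLC Dox in IAA 9 (15.0%). A fit of the 2 groups alone gave 15 for CLC Dox (23.3%) and 0 for CLC Dox in IAA (0.0196%). The cause was not tested.

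With the replicate number as a block, CLC Dox and CLC Dox in IAA each gave 1 (0.163% and 1.85%). Same-number libraries did not pair: correlations of their residuals ran from -0.297 to 0.162. A crossed replicate block for CLC Dox in IAA, chosen after seeing the data, gave 14 (21.6%).

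Leaving out 1 library at a time, the counts ran from 19 to 21, 18 to 24 and 18 to 23 in CTCFL (IAA, Dox, Dox in IAA), 14 to 20, 0 to 11 and 10 to 15 in CTCF, 12 to 19, 1 to 8 and 9 to 19 in LCL, and 13 to 23, 0 to 8 and 0 to 12 in CLC. F tests ran from 11 to 17 (IAA), 17 to 21 (Dox), 26 to 29 (Dox in IAA) and 32 to 33 (untreated). Where a group kept 1 library, it is assumed to vary like the others. Shares of all genes per left-out library are not given for some ranges, such as CLC with IAA and the F tests. There, members cannot be set beside other genes.

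Over all 39 members, FLAG counts in CTCF D, CTCF ID, LCL D, CLC D and CLC ID were 14, 7, 16, 3 and 13 as planned and 8, 3, 9, 0 and 8 within 1000 bp. CTCF D and CLC D gave 8 and 0 at 50% reciprocal overlap and 26 and 5 from replicate 2 alone, and CTCF ID 13 from replicate 1 alone. The cause was not tested.

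Of 55 gene and comparison pairs past both thresholds, 51 kept an adjusted p under 0.01 under every alternative run. The other 4 lost it at least once: Eomes (CTCFL, Dox in IAA), 0.042 by edgeR and 0.0518 by DESeq2, both without I 2 and ID 2, 0.0583 by limma on those same libraries (chosen after seeing the data) and 0.0192 without ID 2; Cdx2 (CTCF, IAA), 0.0135 without U 2 and 0.0177 with all lines; Gata6 (LCL, IAA), 0.0189 without a filter and up to 0.0387 without 1 library; and Lin28b (LCL, Dox in IAA), 0.0297 without I 1. With 2 libraries per group in LCL and CLC, leaving out 1 leaves 1 in its group, and many calls were lost in such fits. A call lost there does not show that it rested on the library left out. Dppa2 with Dox in CLC read -0.94 in the main fit, and -0.97, -0.91, -0.95 and -0.93 without U 1, U 2, D 1 and D 2.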
